A study of Rattus norvegicus with 20 samples.

Results

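Rat subplate neurons kept without a feeder layer were compared after 96 and after 24 hours in the same kind of well, as a record of how their RNA changed with time in culture when no other cells were beneath them. The comparison was chosen by the submitters' group labels. It takes 10 of the 20 arrays of the study, 5 control cultures at 24 hours and 5 at 96 hours, with arrays of the same replicate number taken as pairs. The submitters call the replicates biological and describe the control neurons as bearing few synapses. The other 10 arrays hold neurons grown for the same times above a dense cortical feeder layer, and they are used here only to test whether a change with time differed between the 2 culture conditions.

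Every culture came from the posterior neocortex of rats at embryonic day 17, from cells that adhered to a dish coated with an antibody against the p75 neurotrophin receptor (p75 NTR). The labels give no strain, sex or genetic change. The adherent cells grew on coverslips in serum-free Neurobasal with B27 and chondroitin sulfate A. Control coverslips were moved into wells that held wax spacer dots and medium but no cells, stayed there for 24 or 96 hours, and were not fed again, so time in the well cannot be told apart from time since the last change of medium. RNA of generally 6 pooled coverslips was amplified through 2 cycles before hybridisation. Each value is therefore a mean over a mixed population, in which fewer cells of a type and less RNA per cell cannot be told apart.

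Subplate neurons are among the earliest neurons of the cerebral cortex. They lie beneath the cortical plate, extend pioneer axons, receive early input from the thalamus and pass it on to the cortical layers, and many of them are later lost. As such neurons mature they switch off transcription factors and cytoskeletal genes of the newborn neuron, assemble the proteins of transmitter release, receptors and ion channels, and, in part of the population, package neuropeptides such as somatostatin into dense-core vesicles.

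The deposited value of a probe set on an array is a ratio to that probe set's median over all 20 arrays, so values are comparable between arrays for 1 gene and not between genes. All values below are log2 of that ratio, with a gene's probe sets averaged, and a difference is the mean of the 5 within-pair differences, 96 hours minus 24 hours, with its standard error (n = 5 pairs). The 17243 probe sets that the authors' annotated table of expressed genes lists gave 8109 named genes. A gene is said to have risen or fallen where limma's moderated test, with the replicate number as a block, gave an adjusted p below 0.05 over all 8109 genes.

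The arrays of replicate 5 stood apart from the other control arrays at both times. The mean log2 signal of 18 hybridisation control probe sets, which report RNA added in known amounts and not the cells' own, was 0.52 and 0.50 on these arrays at 24 and 96 hours and between -1.05 and -0.28 on the other 8. The median over named genes was -0.11 and -0.04 in replicate 5 and between 0.02 and 0.19 in the others. Neither quantity moved far with time: the hybridisation signal differed by -0.09 (5 pairs, exact sign-flip permutation p = 0.312, where the smallest possible is 0.0625) and the array median by 0.02 (exact p = 0.25). Counts for the gene lists below are therefore also given without replicate 5 or over all fits that leave out 1 replicate. The same-numbered control arrays deviated together from their group means, with correlations of 0.478 to 0.856 over genes in the 5 pairs. Control arrays of different number and time correlated at -0.73 to 0.63. Among replicates 2, 3 and 4 these values were 0.408 to 0.627, near those of their own pairs, and all lower values involved replicate 1 or 5.

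Of the 8109 genes, 1172 rose (14.5%) and 515 fell (6.35%) between 24 and 96 hours, 1687 in all (20.8%). Over all 31042 probe sets, named or not, 1671 rose (5.38%) and 875 fell (2.82%), 8.20% in all. The pairing carries this count. Without the replicate block the same limma test called 18 genes that rose and 10 that fell (0.345%), and all 28 were among the 1687. Cyclic loess normalization was run on these ratios, so it takes out array differences that vary with a gene's mean ratio, not with its signal intensity. After cyclic loess 455 genes rose (5.61%) and 370 fell (4.56%), 10.2% in all. The share of rises among calls went from 69.5% to 55.2%. Leaving out 1 replicate at a time gave between 849 calls (without replicate 4) and 1438, with 910 without replicate 3, and 710 genes were called in all 5 of these fits. The median difference over all genes was 0.03. Lists of genes with a shared role are described below by counts and medians beside these shares, and without the block at most 1 member of any list passed. In 283 genes (3.49%) the 5 arrays at 96 hours did not overlap the 5 at 24 hours, with the later arrays higher in 136 (1.68%) and lower in 147 (1.81%).

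The largest rise was that of Sst, which encodes the neuropeptide somatostatin. Its log2 ratio was -0.94, 0.95, 0.46, 0.50 and -0.63 in control replicates 1 to 5 at 24 hours and 1.23, 3.63, 2.75, 2.80 and 0.71 in the same replicates at 96 hours. Every replicate was higher at the later time, while the 2 groups overlapped because replicates 1 and 5 stayed low at both. The difference was 2.16 ± 0.15, a 4.45-fold rise (limma adjusted p = 8.28e-05). Calb1, which encodes the calcium buffer calbindin, went from -0.35, -0.03, -0.29, -0.46 and 0.30 at 24 hours to 1.02, 1.15, 0.93, 0.94 and 1.51 at 96 hours. Here the groups did not overlap, all pairs differed by a like amount, and the 2.43-fold rise (1.28 ± 0.06, limma adjusted p = 2.45e-05) also passed without the block. The same held for Rreb1, a zinc finger transcription factor that rose by 1.70 ± 0.10, and for Wfs1, an endoplasmic reticulum membrane protein that rose by 1.30 ± 0.07.

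Lmcd1, a LIM domain cofactor, and Emp1, an epithelial membrane protein, were uneven among replicates. Lmcd1 was between -0.33 and 0.03 on all 5 arrays at 24 hours and 0.36, 2.89, 2.44, 2.74 and 0.25 in replicates 1 to 5 at 96 hours. Emp1 ended at 0.55, 3.23, 2.31, 2.82 and 0.47 from a range of -0.05 to 0.67. In both genes replicates 2, 3 and 4 carried most of the mean difference (1.88 ± 0.37 and 1.66 ± 0.32), although every pair was higher at 96 hours. Mustn1 (1.88), Hist1h4a (1.39), Ccdc80 (1.38), Arhgef3 (1.20), Egr2 (1.20), Nell1 (1.18), Pter (1.16) and Pcdh20 (1.06) completed the 15 largest rises together with Scg2, described below. These 15 were taken from genes higher in all 5 pairs, so that agreement is part of the choice.

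The largest fall was that of Gpc2, a glypican of growing axons. It stood at -0.36, 0.52, 0.21, 0.30 and 0.44 in replicates 1 to 5 at 24 hours and at -1.28, -1.10, -1.43, -0.87 and -0.52 at 96 hours. The groups did not overlap, and the level at 96 hours was 2.39-fold lower (-1.26 ± 0.11, limma adjusted p = 0.000251). Dock11, a guanine nucleotide exchange factor, went from between -0.01 and 0.24 to between -1.19 and -0.74 (-1.05 ± 0.07). Ezh2, the methyltransferase of the Polycomb repressive complex, fell by 0.87 on the log2 scale and had no overlap either. Gpr39 (-0.97), Spon1 (-0.96), Ptprz1 (-0.91), Tox3 (-0.86), St6gal1 (-0.85), Spats1 (-0.79), Klhl25 (-0.77), Zfp462 (-0.76), Tp53i11 (-0.75) and Txnip (-0.75) were also among the largest falls. The largest falls were taken from genes lower in 5 of 5 pairs, so that agreement is part of the choice.

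**Figure D1:**
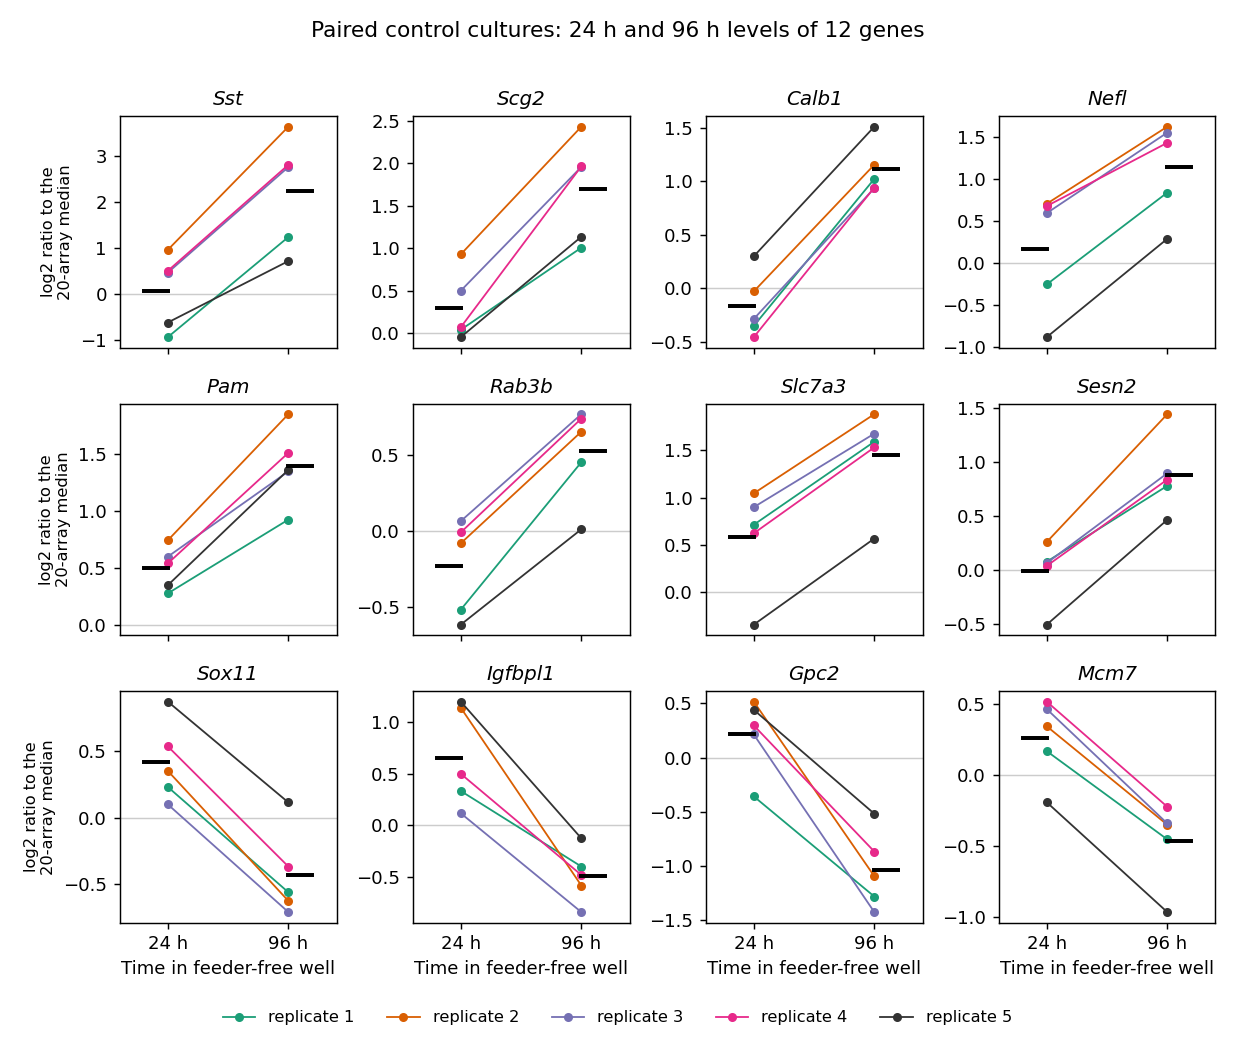
Log2 ratio (vertical axis, each gene on its own scale) of 12 genes in control cultures at 24 and 96 hours (horizontal axis); each line joins the 2 arrays of a replicate number (colours) and short black bars mark group means. All 5 lines go up in Sst, Scg2, Calb1, Nefl, Pam, Rab3b, Slc7a3 and Sesn2 and down in Sox11, Igfbpl1, Gpc2 and Mcm7, with replicate 5 often apart from the rest.

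Among 24 measured genes that mark the immature neuron, 11 fell and none rose, with a median difference of -0.22 that was between -0.36 and -0.05 in each single pair. Over all genes 6.35% fell. Sox11, a transcription factor of newborn neurons, was 0.23, 0.35, 0.10, 0.54 and 0.87 at 24 hours and -0.56, -0.63, -0.71, -0.37 and 0.12 at 96 hours in replicates 1 to 5. It was lower in every pair by a like amount (-0.85 ± 0.06, limma adjusted p = 8.28e-05), and the 8 probe sets of the gene gave differences from -1.13 to -0.50. Igfbpl1, a secreted protein of immature neurons, went from a range of 0.12 to 1.20 to one of -0.84 to -0.13, a 2.21-fold lower level without overlap. Sox4, the close relative of Sox11, fell by 0.55, the surface glycoprotein gene Cd24 by 0.51, and the proneural factor Neurod2 by 0.29. Dcx (doublecortin, a microtubule protein of migrating neurons) fell by 0.27 and the neuronal tubulin gene Tubb3 by 0.23. With any 1 replicate left out between 7 and 13 members fell and none rose (7 without replicate 2 or 3, 8 without replicate 5), and after cyclic loess 9 fell and 1 rose. The calls of Dcx and Tubb3 were lost without single replicates (highest limma adjusted p = 0.0875 and 0.143), and that of Dcx also after cyclic loess (0.0569).

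Of 26 measured genes of the mature neuron 9 rose and none fell, with a median of 0.10. Nefl, the light neurofilament subunit, was -0.26, 0.71, 0.59, 0.68 and -0.89 at 24 hours and 0.84, 1.63, 1.55, 1.43 and 0.29 at 96 hours. Replicates 1 and 5 were low at both times, so the groups overlapped although each pair rose (0.98 ± 0.07). Vsnl1, a neuronal calcium sensor, rose by 0.97 ± 0.12 and its relative Ncald by 0.60 ± 0.07. Slc12a5, the potassium-chloride cotransporter that lowers intracellular chloride as neurons mature, rose by 0.31 ± 0.07, while Slc12a2, the cotransporter that loads chloride, differed by -0.02. Other widely used markers did not pass: the difference was 0.07 in Rbfox3 (NeuN), -0.06 in Map2 and -0.06 in the NMDA receptor subunit Grin2b. With any 1 replicate left out 7 or 8 members rose (8 without replicate 5), and after cyclic loess 7.

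Of 26 measured genes of axon growth 3 rose (11.5%, against 14.5% of all genes) and 5 fell (19.2%, against 6.35%). The falls included Marcks (-0.38 ± 0.09), a membrane-bound actin regulator, and the rises Kif1a (0.33 ± 0.10), a motor of synaptic vesicle precursors. After cyclic loess no gene of this list rose and 5 fell, and with 1 replicate left out 0 or 1 rose and between 1 (without replicate 3) and 6 fell (0 and 4 without replicate 5). Marcks was not called without replicate 3 or 4 (highest limma adjusted p = 0.0719), nor Kif1a without replicate 2, 3 or 5 (0.116) or after cyclic loess (0.114). Among 24 axon guidance genes 3 rose (12.5%) and 4 fell (16.7%), with 2 in each direction without replicate 4 and 2 and 3 without replicate 5. The repellent Slit2 rose by 0.81 ± 0.10 and the netrin receptor Unc5c by 0.58 ± 0.10. The ephrin receptor Ephb1 fell by 0.54 and the semaphorin coreceptor Nrp1 by 0.49.

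Neuropeptide and dense-core vesicle genes had the highest share of rises among the 25 pathway lists. Of 17 measured members 12 rose (70.6%, against 14.5% of all genes) and none fell, with a median of 0.43 that ranged from 0.35 to 0.56 over the 5 pairs. The count was between 12 and 14 with any 1 replicate left out (12 without replicate 5) and 9 after cyclic loess. Besides Sst, the peptide precursor genes Adcyap1 (PACAP, 0.87 ± 0.07) and Cck (cholecystokinin, 0.39 ± 0.07) rose. Of the granins, acidic proteins of the vesicle core, Chgb rose by 0.77 ± 0.08. Pam, which amidates peptides in the vesicle, went from 0.28, 0.74, 0.60, 0.54 and 0.35 to 0.92, 1.85, 1.35, 1.51 and 1.36 (0.90 ± 0.08), with no overlap between the times.

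Scg2 and Vgf, a granin and a granin-like precursor, stand in the dense-core vesicle list and in the list of activity-regulated genes. Their promoters are shown because both hold the full cAMP response element, TGACGTCA, a palindrome that reads alike on both strands. Each line gives the 130 bases before the annotated start in RefSeq (GRCr8), on the minus strand, 5′ to 3′, with the element in capitals. The Vgf window is chr12:25277021-25277150 and the Scg2 window chr9:88256867-88256996.
Vgf: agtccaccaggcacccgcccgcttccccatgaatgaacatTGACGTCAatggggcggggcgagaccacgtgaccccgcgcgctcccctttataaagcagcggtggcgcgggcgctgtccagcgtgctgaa
Scg2: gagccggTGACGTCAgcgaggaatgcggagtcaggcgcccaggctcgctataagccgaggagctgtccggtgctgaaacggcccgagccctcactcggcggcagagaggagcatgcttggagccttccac

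The element lies 90 to 83 bases before the start of Vgf and 123 to 116 bases before that of Scg2. Scg2 was 0.04, 0.93, 0.50, 0.07 and -0.04 at 24 hours and 1.01, 2.43, 1.96, 1.96 and 1.14 at 96 hours, a 2.64-fold rise with no overlap (1.40 ± 0.12, limma adjusted p = 0.000181). Vgf went from 0.70, 0.94, 0.57, 0.67 and 0.16 to 1.24, 1.92, 1.36, 1.35 and 0.87, higher in every pair but with replicate 5 at 96 hours below replicate 2 at 24 hours (0.74 ± 0.07). The motif was chosen after these rises were known, and a match is a description of the letters alone. Within 250 bases before the start it was found in 466 of 27457 rat promoters (1.70%), in 225 of the 6691 measured genes with a promoter in the table (3.36%), in 30 of 964 that rose (3.11%) and in 6 of 431 that fell (1.39%). The share among genes that rose was near that of all measured genes. In the dense-core vesicle list it was in 2 of the 9 rising members with a promoter.

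Among 37 measured genes of the presynaptic vesicle and active zone 17 rose (45.9%) and none fell, with a median of 0.19 (0.14 to 0.26 over the pairs). Rab3b, a small GTPase of synaptic and secretory vesicles, rose most, from -0.52, -0.08, 0.06, -0.01 and -0.61 to 0.45, 0.65, 0.76, 0.74 and 0.01. All pairs rose (0.75 ± 0.07), with overlap through replicate 5. The membrane fusion protein syntaxin (Stx1a) rose by 0.42 ± 0.07, the vesicular glutamate transporter Slc17a7 by 0.37 ± 0.07 and Rab3a by 0.30 ± 0.06. The presynaptic count varied with the fit. With array medians made equal 17 members rose, and after cyclic loess 5 did. Without replicate 3 or 4 the count was 7, without replicate 2 it was 10 and without replicate 5 it was 11. Rab3b and Stx1a were among those that passed after loess (adjusted p = 0.000858 and 0.0212 by limma), and Slc17a7 and Rab3a were not (0.785 and 0.524). Rab3a was not called without replicate 3 (limma adjusted p = 0.0582).

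Of 31 measured genes of the excitatory postsynapse 8 rose (25.8%, against 14.5% of all genes) and 2 fell (6.45%, near the 6.35% of all genes). Their median was 0.10. The AMPA receptor subunit Gria3 rose by 0.60 ± 0.07, the obligatory NMDA receptor subunit Grin1 by 0.32 ± 0.06 and the scaffold Homer1 by 0.39 ± 0.06, while the kainate receptor subunit Grik2 fell by 0.60 ± 0.11 and the AMPA receptor auxiliary subunit Cacng8 by 0.38 ± 0.08. After cyclic loess the counts were 3 and 1, and with any 1 replicate left out 6 to 11 rose and 2 fell (7 and 2 without replicate 5). Homer1 and Cacng8 were among the calls lost after loess (adjusted p = 0.21 and 0.14 by limma). Among 19 genes of the inhibitory synapse and GABA signalling 9 rose (47.4%) and 1 fell, with a median of 0.23. The GABA-A receptor subunit Gabrb1 rose by 0.42 ± 0.07, the GABA-B receptor subunit Gabbr2 by 0.30 ± 0.06 and the vesicular GABA transporter Slc32a1 by 0.55 ± 0.10. After cyclic loess 5 members rose and none fell, and with any 1 replicate left out 6 to 8 rose and at most 1 fell (8 and none without replicate 5).

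Of 27 measured adhesion genes of the synapse 4 rose (14.8%, near the 14.5% of all genes) and 5 fell (18.5%, against 6.35%). The falls were 2 after cyclic loess, 2 without replicate 3 or 4 and 4 without replicate 5. All 4 rises were protocadherins, Pcdh20 (1.06 ± 0.19), Pcdh8 (0.66 ± 0.08), Pcdh17 (0.60 ± 0.08) and Pcdh10 (0.33 ± 0.06). After cyclic loess Pcdh8 and Pcdh17 passed, Pcdh20 (adjusted p = 0.382 by limma) did not, and the difference of Pcdh10 turned to -0.16 (0.122). Cadm1, an immunoglobulin-family adhesion molecule, fell from between -0.17 and 0.19 to between -0.79 and -0.42 (-0.62 ± 0.07), and the teneurin Tenm2 fell by 0.49 ± 0.08. Among 34 voltage-gated channel genes 9 rose (26.5%, against 14.5% of all genes) and 3 fell (8.82%, near the 6.35% of all genes). After cyclic loess 4 rose and 1 fell, and without replicate 3 there were 5 rises (8 rises and 3 falls without replicate 5). The sodium channel subunits Scn1a (0.66 ± 0.09) and Scn2a (0.34 ± 0.07) and the A-type potassium channel Kcna4 (0.62 ± 0.08) rose, and Kcnmb4, a subunit of the large-conductance calcium-activated channel, fell by 0.40 ± 0.08 beside a rise of 0.40 ± 0.08 in its pore-forming partner Kcnma1. Neither of these last calls held after cyclic loess (adjusted p = 0.0689 and 0.119 by limma).

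**Figure D2:**
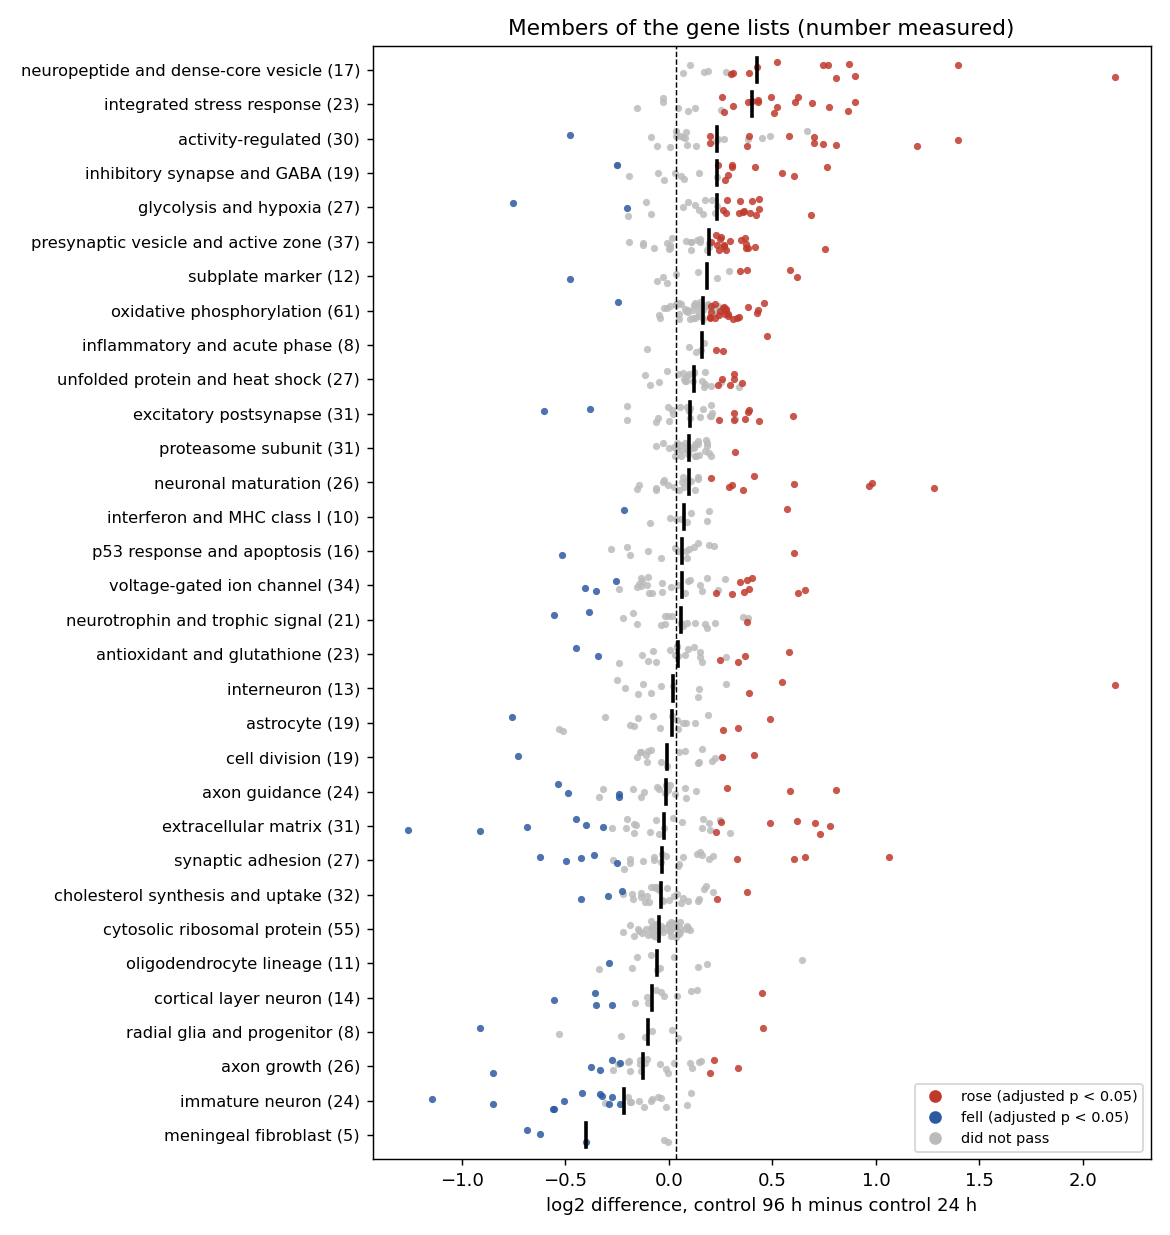
Difference in log2 ratio, 96 minus 24 hours, of each measured member (points) of gene lists (rows), with the list median (bar) and the median of all genes (dashed line); red points rose and blue points fell by the paired limma test, and grey points did not pass. Points of the dense-core vesicle and integrated stress response lists lie mostly right of 0 (medians 0.43 and 0.40), those of the immature neuron list left of 0 (median -0.22).

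Of 30 measured genes known to respond to neuronal activity 11 rose and 1 fell, with a median of 0.23 (0.16 to 0.40 over the pairs). The fall was that of Nr4a2 (-0.48 ± 0.11), which is also in the subplate marker list below. Besides Scg2 and Vgf, the list's rises included the G protein regulators Rgs4 (0.70 ± 0.09) and Rgs2 (0.58 ± 0.07) and the transcription factors Egr2 (1.20 ± 0.19) and Klf4 (0.70 ± 0.08). Bdnf, brain-derived neurotrophic factor, was within 0.52 to 0.59 on all arrays at 24 hours and 0.81, 1.11, 0.77, 0.74 and 1.21 at 96 hours. It rose by 0.38 ± 0.08 with no overlap, though not after cyclic loess (adjusted p = 0.752 by limma), where the call of Rgs2 was lost as well (0.468). The immediate early gene Fos was higher in 4 of 5 pairs and did not pass (0.49 ± 0.21, limma adjusted p = 0.124). Without replicate 4 the difference of Fos was 0.72 and passed (limma adjusted p = 0.0307). After cyclic loess 6 members rose and 2 fell, and with any 1 replicate left out 9 to 14 rose and 1 fell (10 without replicate 5).

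Genes of the integrated stress response, which cells switch on through the factor ATF4 when amino acids run short or protein folding is disturbed, formed the other list with a high share of rises. Of 23 measured members 16 rose (69.6%) and none fell, with a median of 0.40 (0.32 to 0.51 over the pairs). Slc7a3, a transporter of cationic amino acids, was 0.71, 1.05, 0.90, 0.62 and -0.35 at 24 hours and 1.59, 1.88, 1.68, 1.53 and 0.57 at 96 hours. Replicate 5 was low at both times, and each pair rose by a like amount (0.86 ± 0.06, limma adjusted p = 7.51e-05). Sesn2, a sensor of leucine, went from between -0.51 and 0.26 to between 0.46 and 1.44 without overlap (0.90 ± 0.08). Asparagine synthetase (Asns) rose by 0.69 ± 0.07, Chac1, which degrades glutathione, by 0.62 ± 0.09 and Atf4 itself by 0.61 ± 0.07. After cyclic loess 9 members rose, and with any 1 replicate left out between 11 and 14 did (14 without replicate 5). Atf4 was among the calls lost after loess (adjusted p = 0.0622 by limma). These cultures were not fed between the time points, and the part of that in these values was not tested.

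Of 27 genes of the unfolded protein and heat shock responses 6 rose, among them Hspa5 (BiP, 0.32 ± 0.07), and 1 did after cyclic loess and 2 without replicate 3 or 4 (5 without replicate 5). Hspa5 was not called without either of these (highest limma adjusted p = 0.0521). Glycolysis and hypoxia genes rose in 13 of 27 and fell in 2. The neuronal glucose transporter Slc2a3 rose by 0.69 ± 0.06, triosephosphate isomerase (Tpi1) by 0.42 ± 0.06 and lactate dehydrogenase A (Ldha) by 0.36 ± 0.06, while Txnip, an inhibitor of glucose uptake, fell by 0.75 ± 0.11. After cyclic loess the counts were 4 and 2, and with any 1 replicate left out 11 to 14 rose (11 without replicate 5). Tpi1 and Ldha were among the calls lost after loess (adjusted p = 0.226 and 0.113 by limma). Among 61 oxidative phosphorylation genes 22 rose and 1 fell, with a median of 0.17, and the succinate dehydrogenase subunits Sdha (0.46 ± 0.07), Sdhd (0.43 ± 0.06) and Sdhb (0.38 ± 0.06) were in front. This count was 11 rises without replicate 3 or 4, 12 without replicate 5 and 2 after cyclic loess, where Sdhb was not called (adjusted p = 0.251 by limma). Of 55 cytosolic ribosomal protein genes none passed, and their median was -0.05.

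**Figure D3:**
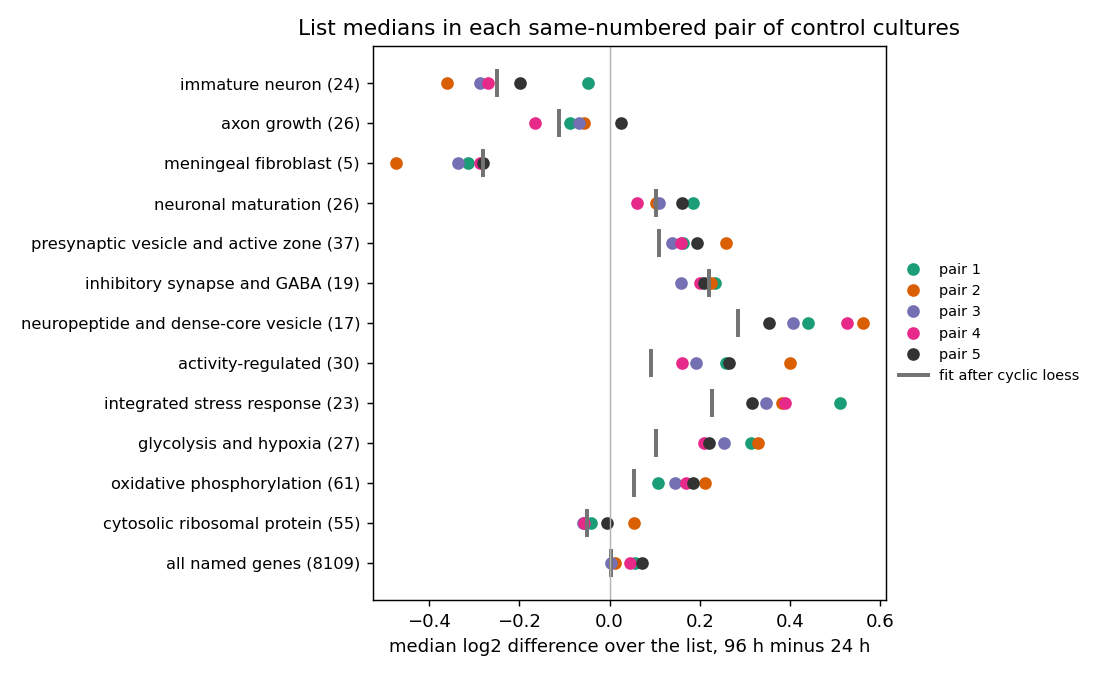
Median difference in log2 ratio, 96 minus 24 hours, of the measured members of each gene list (rows) in each of the 5 replicate pairs (coloured points), and after cyclic loess (grey bar). In the dense-core vesicle list the pairs lie between 0.35 and 0.56 and in the integrated stress response list between 0.32 and 0.51, and in the immature neuron list between -0.36 and -0.05.

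The markers of the labelled cell type were measured in part. Of 22 subplate markers listed, 12 were in the table. Ngfr, the gene of the p75 receptor used for panning, was not analysed here. Since each value is a ratio within a gene, these data give no absolute level with which to rank subplate markers against those of other cells. Ccn2, a matricellular protein typical of deep subplate cells, was 0.50, 1.29, 1.27, 0.30 and -0.61 at 24 hours and 1.20, 1.66, 1.83, 1.33 and -0.18 at 96 hours, higher in each pair (0.62 ± 0.09) though not after cyclic loess (adjusted p = 0.148 by limma). Nr4a2 (Nurr1), a nuclear receptor of subplate and deep-layer neurons, was 0.68, -0.05, 0.12, 0.42 and 0.42 and then 0.08, -0.24, -0.19, -0.54 and 0.09. It fell in each pair (-0.48 ± 0.11, limma adjusted p = 0.0132), with overlapping groups. In all, 4 subplate markers rose (Ccn2, Kcnab1, Pcsk5 and Unc5c) and 1 fell, with a median of 0.19. The 3 probe sets of Kcnab1 gave differences from -0.03 to 0.98, around a mean of 0.38 ± 0.06. After cyclic loess 2 markers rose and 1 fell, with Pcsk5 at -0.074 (adjusted p = 0.573 by limma). Pcsk5 was also not called without replicate 4 (0.0682). Of 14 markers of cortical layer neurons 4 fell, among them Bcl11b (-0.36 ± 0.06, a factor of subcortical projection neurons) and Lmo3 (-0.55 ± 0.14), and Etv1, a layer 5 factor, rose by 0.45 ± 0.08. After cyclic loess this count was 1 in each direction, and without replicate 3 or 4 it was 2 falls, with Lmo3 not called (highest limma adjusted p = 0.0823). Lmo3 was not called after cyclic loess either (0.126).

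Markers of other cells were examined because a panned population can hold some. Of 13 measured interneuron markers 3 rose: Sst, Cck and Slc32a1. The mean log2 ratio of the interneuron list lay between -0.62 and -0.11 at 24 hours and between -0.26 and 0.12 at 96 hours. None of the list's other members passed, and the part of interneuron number in the rise of Sst was not tested. Of 19 astrocyte markers 3 rose (15.8%, near the 14.5% of all genes) and 1 fell (5.26%, against 6.35%), with a median of 0.02. The list's mean lay between -0.71 and -0.16 at 24 hours and between -0.69 and -0.44 at 96 hours. The rises were Mt3 (0.33 ± 0.07, without overlap), Aldoc (0.26 ± 0.06) and Sparc (0.49 ± 0.13). After cyclic loess 2 members rose, Mt3 and Aldoc (adjusted p = 0.011 and 0.0171 by limma), and none fell. With 1 replicate left out 1 or 2 rose and at most 1 fell. Gfap, the astrocyte filament, differed by -0.04 ± 0.11, and Gja1 (connexin 43) fell by 0.76 in 4 of 5 pairs. Apoe, a lipid carrier, was 0.03 in replicate 4 at 24 hours and between -2.24 and -1.16 on every other control array, with a difference of -0.51 ± 0.28 that did not pass. Of 8 radial glia markers Ptprz1 fell and the intermediate filament gene Vim rose (0.45 ± 0.14), with the list's mean between -1.63 and -0.57 and then between -1.59 and -1.19. Fn1 (-0.69 ± 0.14), Igfbp2 (-0.62 ± 0.07) and Col4a1 (-0.40 ± 0.10) fell among 5 meningeal fibroblast markers. Of 11 oligodendrocyte lineage markers 1 fell, and neither of 2 endothelial markers passed. Among the calls of this paragraph, Gja1, Vim, Col4a1 and Sparc were lost without single replicates (highest limma adjusted p = 0.0806, 0.152, 0.0935 and 0.0878). Calls of Mt3 and Aldoc in those fits are not given. Gja1, Col4a1 and Sparc were not called after cyclic loess (limma adjusted p = 0.0998, 0.142 and 0.185). The counts of these lists moved by 1 or 2 members. None of 18 microglial markers was in the table.

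Whether these changes belonged to control cultures was tested against the cocultures. The 96 minus 24 hour difference in controls exceeded that in cocultures in 762 genes (9.40%) and was below it in 109 (1.34%), 871 of 8109 (10.7%) by limma's interaction over all 20 arrays with the replicate block. The count depended on the fit. It was between 112 (without replicate 4) and 1975 (without replicate 5) with 1 replicate left out, 4 without the block, 11 with the hybridisation signal as a covariate, and 401 in each direction after cyclic loess. The hybridisation signal rose with time in all 5 coculture pairs (0.37 ± 0.11, SD) and in 1 of 5 control pairs, and its part in the differences between conditions was not tested.

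Several leading rises were larger in controls than in cocultures. Sst rose by 2.16 in controls and differed by 0.24 in cocultures, a difference between conditions of 1.91 ± 0.46 (limma adjusted p = 0.0153). Calb1 differed by 1.28 and -0.16 (difference 1.44 ± 0.42, adjusted p = 0.0382 by limma, 0.0624 after cyclic loess), and Nefl by 0.98 and -0.34 (1.32 ± 0.19, limma adjusted p = 0.000772). Pam (0.90 and 0.07), Adcyap1 (0.87 and 0.12), Scn1a (0.66 and -0.19), Slc7a3 (0.86 and -0.39) and Slit2 (0.81 and -0.37) also passed the interaction test, and these 5 passed it after cyclic loess too. The lipoprotein lipase gene Lpl gave the largest difference with the higher value in controls (2.37 ± 0.28), through a change of -2.19 in cocultures beside 0.18 in controls. In the opposite direction the largest difference was that of Fos (-3.03 ± 0.93, limma adjusted p = 0.0434), which differed by 3.52 in cocultures and 0.49 in controls. The astrocyte genes Gja1 (-0.76 and 1.21), Apoe (-0.51 and 1.38) and Gfap (-0.04 and 1.63) rose above the feeder layer. In controls Gja1 fell, and neither Apoe nor Gfap passed. With the hybridisation covariate, Slit2 and Apoe passed among the genes of these sentences (adjusted p = 0.0499 and 0.0459 by limma).

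The fall of immature neuron genes was measured in both conditions. In cocultures, where 588 of all genes rose (7.25%) and 2051 fell (25.3%), 14 of the 24 fell and 2 rose. Sox11 differed by -0.85 in controls and -1.08 in cocultures and Igfbpl1 by -1.14 and -1.67, and neither passed the interaction test. The difference between conditions was 0.23 ± 0.22 for Sox11. Gpc2, which is not in that list, differed by -1.26 and -0.92, and its interaction did not pass on the values as deposited but did after cyclic loess (-0.63, adjusted p = 0.00643 by limma). In oxidative phosphorylation 22 of 61 genes rose in controls, or 2 after cyclic loess, while 28 fell and none rose in cocultures. The interaction passed in 29, all with the higher value in controls, a direction in which 9.40% of all genes passed. Over all genes the median difference between conditions was 0.16, and 0.003 after cyclic loess. The part of this general shift in the list's count was not tested. In cholesterol synthesis and uptake 20 of 32 genes rose in cocultures and 2 in controls. The interaction passed in 6 of them, all with the lower value in controls.

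**Figure D4:**
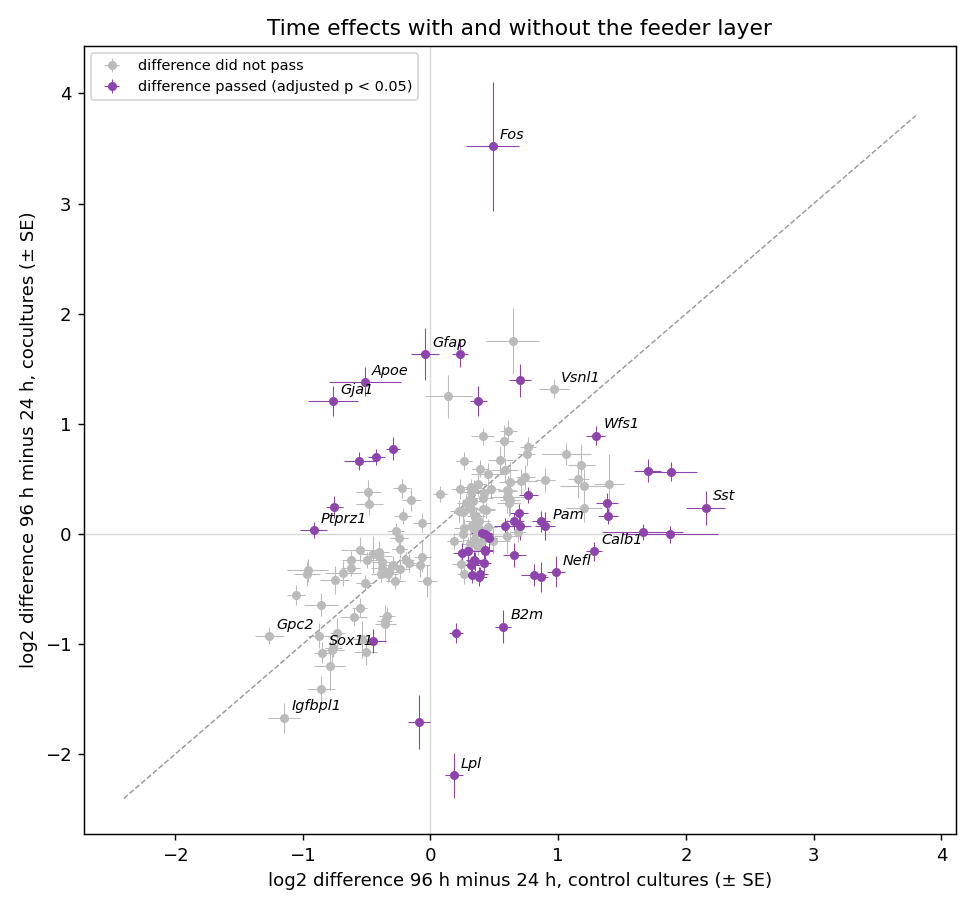
Difference in log2 ratio, 96 minus 24 hours, of the genes chosen for naming in control cultures (horizontal axis) against cocultures (vertical axis), each ± SE, with the line of equal change; purple points passed the interaction test and grey points did not. Sst, Calb1 and Nefl lie at the right near or below 0 on the vertical axis, Gja1, Apoe and Gfap at the upper left, and Sox11, Igfbpl1 and Gpc2 at the lower left.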

How the data were processed

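Subplate neuron RNA was hybridised to Affymetrix rat arrays. The deposited values are linear ratios: RMA over all 20 arrays, each gene divided by its median, per the file headers. RMA and MAS5 are named without versions in the submitters' processing notes. The annotated table lists probe sets called present on 10 of 20 arrays, over controls and cocultures together. The deposited values were taken as log2, and 57 control probe sets among all deposited ones were left out. Of the 17243 listed probe sets, 52 of them controls, 11341 were given 1 gene name and averaged to 8109 genes. Names came through the RefSeq table (GRCr8), mostly by Entrez number. Another 5349 had no name, 216 several and 285 a withdrawn one.

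limma 3.58.1 in R 4.3.3 fitted time with the replicate number as a block over the 10 control arrays, with Benjamini-Hochberg adjustment over 8109 genes, or over 31042 probe sets. The numbers were taken as pairs because the comparison defines them so and every same-numbered pair of arrays correlated above 0.1 (lowest 0.242 over all 30 pairs). Not every control array was closest to its own number. Replicate 4 at 96 hours correlated at 0.478 with its own number at 24 hours and at 0.627 with replicate 3. Replicate 2 at 24 hours correlated at 0.479 with its own number at 96 hours and at 0.534 with replicate 4. Replicate 2 at 96 hours was also slightly closer to replicate 3 at 24 hours (0.485). The labels do not say what a number marks, so p-values measure the spread between these samples. Genes were named by a rule: the 15 largest rises and falls that moved alike in 5 pairs, up to 6 called members of each list by smallest p (for lists with under 3 calls, 2 members more), 16 defining genes, and the 5 largest interaction differences each way. The comparison, the 35 gene lists and the rule were chosen with earlier results of these data known. The fits were tested on simulated data. Alternatives were fits without the block, over all arrays, with a random block, a robust prior or array weights, equal medians, cyclic loess, a fold threshold, the hybridisation covariate, other probe set summaries and single replicates left out. Some items are not reported here.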

Additional observations from a re-analysis of the deposited data

Results flagged for a closer look

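In 27 of 242 groups of 5 control arrays, taken over 121 of the genes named here, 1 array lay apart from the others. The gap to its neighbour exceeded 0.71 of the group's range, a limit that chance passes in about 1 of 20 groups. Replicate 5 was that array in 24 of the 27, and genes on an array are not independent. The share of the range taken by the gap is given after each gene. At 24 hours replicate 5 was lowest in Ephb1 (0.774), Gria3 (0.806), Homer1 (0.744), Grin1 (0.741), Gabbr2 (0.841), Pcdh10 (0.73), Scn2a (0.806), Kcnma1 (0.758), Chgb (0.829), Ldha (0.737) and Sesn2 (0.711). It was highest at that time in Gpr39 (0.79) and Sox4 (0.779). At 96 hours it was lowest in Arhgef3 (0.749), Vsnl1 (0.881), Gabbr2 (0.737), Slc12a5 (0.737), Pcdh10 (0.781), Scn2a (0.787), Chgb (0.761), Slc7a3 (0.733), B2m (0.734) and Map2 (0.784). It was highest then in Gpr39 (0.742). The other 3 arrays apart were replicate 2 at 24 hours, highest in Hspa5 (0.719) and lowest in Rbfox3 (0.725), and replicate 1 at 96 hours, lowest in Gpx1 (0.806).

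The change with time differed between control cultures and cocultures in 37 of these 121 genes by limma's interaction test, against 10.7% of all genes; the genes were named in part for this difference. Each value is the log2 difference, 96 minus 24 hours, in controls minus that in cocultures. It was above 0 in Lpl (2.37), Sst (1.91), Lmcd1 (1.88), Emp1 (1.64), Calb1 (1.44), B2m (1.41), Nefl (1.32), Mustn1 (1.32), Slc7a3 (1.26), Hist1h4a (1.22), Slit2 (1.18), Rreb1 (1.13), Ccdc80 (1.10), Scn1a (0.85), Pam (0.83), Sdhb (0.77), Adcyap1 (0.75), Homer1 (0.75), Tpi1 (0.68), Klf4 (0.63), Sdhd (0.58), Pcdh8 (0.54), Gpx1 (0.52), Sod2 (0.51), Asns (0.50), Sdha (0.49), Chgb (0.42), Wfs1 (0.40) and Kcnma1 (0.40). It was below 0 in Fos (-3.03), Gja1 (-1.97), Apoe (-1.89), Gfap (-1.68), Ntf3 (-1.22), Tp53i11 (-1.0), Ptprz1 (-0.95) and Rgs4 (-0.69). The hybridisation signal rose with time in 5 of 5 coculture pairs and in 1 of 5 control pairs, and its part in these differences was not tested.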

How the results depend on the processing

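Without the replicate block 28 genes were called over the 10 control arrays and 34 when all 20 arrays shared the spread, against 1687 with the block, and 558 with the block over all 20 arrays. The count was 825 after cyclic loess, 152 with a change of at least 1.5-fold, 667 with the hybridisation signal as a covariate and 849 to 1438 without 1 replicate. Without replicates 1 and 5 together, an alternative chosen after seeing the data, it was 1123. For probe sets the count of 2546 became 84 and 45 without the block (10 and 20 arrays), 777 with the block over 20 arrays, 1263 after cyclic loess, 458 at 1.5-fold, 857 with the covariate and 1156 to 2199 without 1 replicate. The interaction count of 871 became 4 without the block, 11 with the covariate and 112 to 1975 without 1 replicate. Leaving out the block cannot change a sign, because with complete pairs the difference itself stays the same. All 1687 calls kept their sign in the fits without 1 replicate. After cyclic loess 1620 kept it, and 702 were called again. Pcsk5 (-0.074) and Pcdh10 (-0.16) changed sign after cyclic loess. Among 113 of the called genes named here, 10 passed without the block and 86 after cyclic loess. The cause of these shifts was not tested. The number of arrays limits every value, detection in control arrays alone was not judged, and ratios give no absolute level.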

Other observations

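Of 31 measured genes of the extracellular matrix and its proteases 7 rose (22.6%, against 14.5% of all genes) and 6 fell (19.4%, against 6.35%). Among the rises were Serpine2, a secreted protease inhibitor (0.71 ± 0.13), and Sparc, a collagen-binding matrix protein (0.49 ± 0.13), and among the falls the glypican Gpc4 (-0.45 ± 0.09). Of 19 genes of cell division 2 rose (10.5%), Ccne1 (0.41 ± 0.10) and Ccnd2 (0.26 ± 0.07), and 1 fell (5.26%). The gene that fell was Mcm7, a subunit of the replicative helicase, at 0.17, 0.34, 0.46, 0.52 and -0.19 in control replicates 1 to 5 at 24 hours and -0.46, -0.35, -0.34, -0.23 and -0.97 at 96 hours, without overlap (-0.73 ± 0.06, limma adjusted p = 0.000172).

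Antioxidant genes rose in 4 of 23 (17.4%) and fell in 2 (8.70%), near the 14.5% and 6.35% of all genes. Mitochondrial superoxide dismutase (Sod2) rose by 0.58 ± 0.08 and glutathione peroxidase 1 (Gpx1) fell by 0.45. Of 16 p53 and apoptosis genes 1 rose, the cell cycle inhibitor Cdkn1a (0.61 ± 0.14), and 1 fell. Of 10 interferon and MHC class I genes 1 rose and 1 fell. The gene that rose was B2m, the light chain of MHC class I, by 0.57 ± 0.06 in controls beside -0.84 in cocultures. Of 8 inflammatory genes 3 rose, among them Cxcl12 (0.47 ± 0.07), a chemokine, and of 21 genes of trophic signalling Bdnf rose and Ntf3 (-0.56 ± 0.12) and Igf1r (-0.39 ± 0.08) fell. In cholesterol synthesis and uptake 2 of 32 rose and 3 fell in controls, with a median of -0.04, and of 31 proteasome subunits 1 rose. The calls of Sparc, Ccnd2, Ccne1, Gpx1, Cdkn1a and Ntf3 were lost without some single replicates (highest limma adjusted p = 0.0878, 0.104, 0.0551, 0.0502, 0.0568 and 0.0528). After cyclic loess Sparc, Ccnd2, Ccne1, Cdkn1a, Ntf3, Igf1r and Bdnf were not called (adjusted p = 0.185, 0.105, 0.118, 0.082, 0.0815, 0.0652 and 0.752 by limma). With 1 replicate left out the counts of the lists in this section moved by at most 3 members.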
